A study of Rattus norvegicus with 6 samples.

Results

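The Krueppel-like factors are zinc finger transcription factors, and 9 of their genes were examined here in rat heart muscle: Klf2, Klf4, Klf5, Klf6, Klf7, Klf10, Klf11, Klf13 and Klf15. They were chosen by name, with no measured value in the rule but with earlier results of these data known. Each was found on the arrays through the RefSeq accession of its probe. Of the 9 genes, 8 had a probe, out of 13876 genes named on the arrays, and each of the 8 had 1 probe with 1 spot. No probe matched Klf7, which was left out. The series compared male Wistar rats, per the labels 1 array per animal. An infarct was made in 3 rats by ligating the left anterior descending artery of the heart, and its border zone, located with the stains TTC and EB, was taken after 6 h (arrays M17, M24 and M25). The other 3 rats had a sham operation and gave heart muscle at the same time (arrays C4, C5 and C6). Ages are not given in the labels. The pieces were whole tissue, so fewer cells of a type and less RNA per cell cannot be told apart in any value below.

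Krueppel-like factors bind GC-rich DNA, chiefly CACCC boxes and GC boxes, through a run of zinc fingers at the C-terminal end, while their N-terminal parts differ and recruit activators or repressors. Klf2 and Klf4 are known as flow-induced factors that keep endothelium quiescent. Klf5 and Klf6 are known from injured vessel and heart, where they act in growth and matrix programmes, and Klf15 is known from mouse heart as a brake on hypertrophic growth and a regulator of fuel use. Klf10, Klf11 and Klf13 are among the members that recruit the Sin3 corepressor, and Klf10 and Klf11 were first known as genes induced by TGF-beta.

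Values below are log2 processed signals minus the 75th percentile of the array, so a negative level lies under that percentile. Differences are border zone minus sham, with the standard error of the limma fit and n = 3 arrays per group, and adjusted p-values are from limma with Benjamini-Hochberg adjustment over the 17930 probes tested. Array quality differed within sham: 74.3% to 78.3% of probes were well above background on the border zone arrays, against 73.7% on C4, 51.0% on C5 and 52.4% on C6. All border zone arrays were scanned together with C4, while C5 and C6 had a scan each, so comparison within a scan is possible only against C4, with no sham spread behind it. Of 11 measured markers of central nervous tissue, 11 had their 2 highest values on C5 and C6, and 8 of them were well above background there; the signal needed for that was higher on C5 and C6 than on C4. M25 lay between M17 and M24 on 97.6% of the 572 probes on which those arrays differed by over 2-fold and on 70.5% of all probes tested, and in 7 of the 8 factors, all but Klf5. Whether M25 came from an animal of its own was not tested, and calls of genes named with a test below that end without it are given as such.

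Klf5 and Klf6 were higher in the border zone, and none of the other 6 factors passed the threshold of an adjusted p below 0.05 in either direction. Over all probes tested, 19.3% passed, 9.01% as higher and 10.3% as lower. Scaled to the array median instead, 10.8% passed as higher and 5.18% as lower, and the median difference over all probes was 0.16 in place of -0.03. At an unadjusted p below 0.05, 5 of the 8 factors passed, 2 higher (Klf5 and Klf6) and 3 lower (Klf11, Klf13 and Klf15). Of all 17930 probes tested, 6524 passed at that unadjusted threshold in either direction. The median difference of the 8 factors was -0.06. Border zone and sham arrays did not overlap for 4 of the 8 (Klf5, Klf6, Klf11 and Klf15), against 43.7% of all probes tested. All 8 were tested, and 7 of them were well above background on all 6 arrays; Klf5 entered the test only through its border zone signal. Within the border zone, M24 was the highest array for Klf2, Klf4, Klf5 and Klf6, and M17 for Klf10, Klf11, Klf13 and Klf15.

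**Figure D1:**
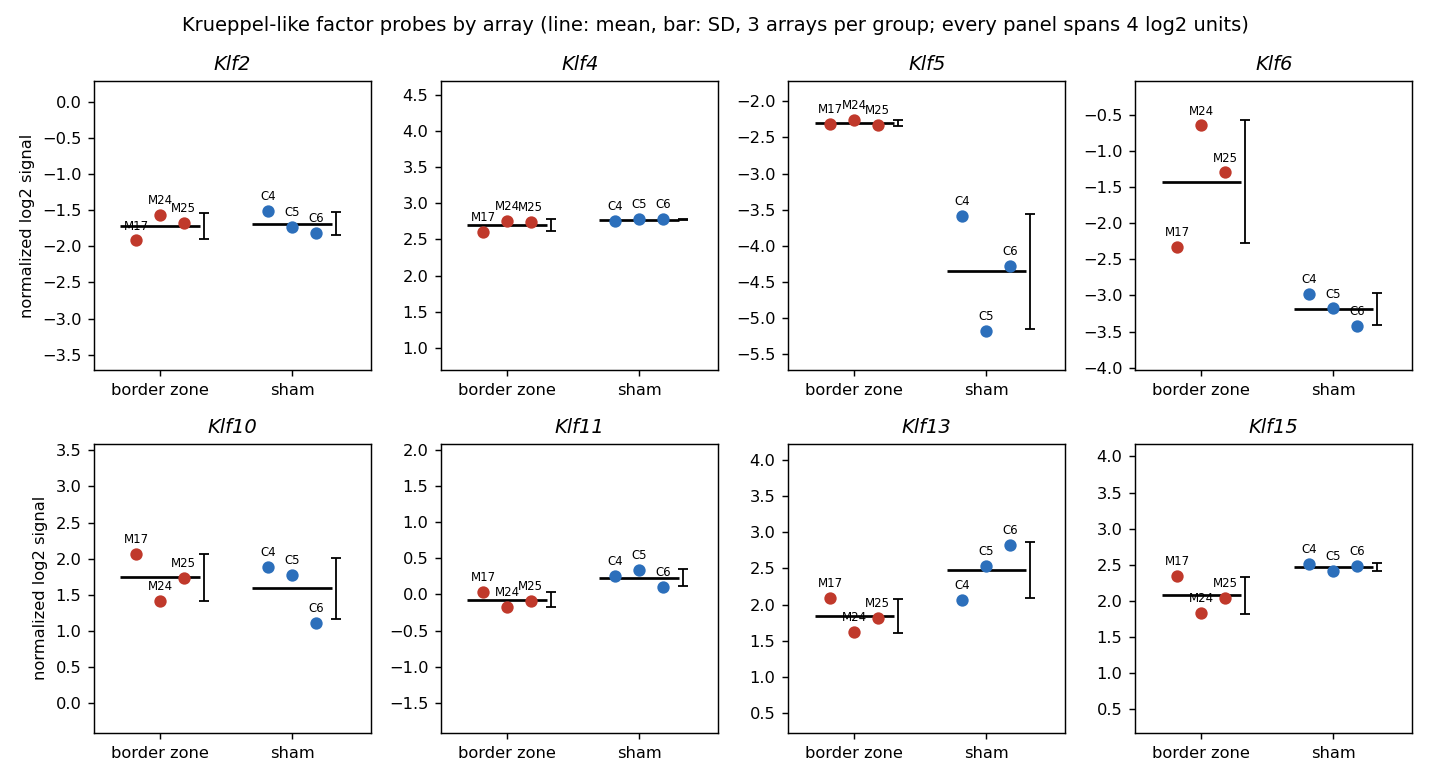
Normalized log2 signal (vertical axes, relative to the 75th percentile of the array) of the 8 measured Krueppel-like factors, 1 panel per gene, with border zone arrays on the left and sham arrays on the right, a point per array, a line at each group mean and a bar for the SD (n = 3). Klf5 and Klf6 lie higher on all 3 border zone arrays than on any sham array, while Klf2, Klf4, Klf10 and Klf13 overlap between the groups.

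Klf5, a factor induced in smooth muscle and fibroblasts of injured tissue, rose. Its level was -2.31, -2.26 and -2.33 in the border zone (M17, M24 and M25), against -3.59, -5.18 and -4.28 in sham (C4, C5 and C6). The border zone arrays lay close together and all above sham, and the sham arrays were spread widely, with C4 the highest. The difference was 2.05 ± 0.39 on the log2 scale, or 4.15-fold, with a 95% interval of 1.09 to 3.01 and an adjusted p of 0.0211. The Klf5 spot was well above background on 3 of 3 border zone arrays and, in sham, only on C4. With C5 and C6 raised to the lowest signal called well above background on each array, -4.49 and -3.98, the difference was 1.72, or 3.30-fold, so Klf5 and Klf6 (described next) have no settled order. Against C4 alone it was 1.29 ± 0.09 (adjusted p = 0.0124), and without M25 it was 2.07 with an adjusted p of 0.0959, which did not pass.

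Klf6, an early injury-response factor of vessel wall and stellate cells, also rose. Its level was -2.33, -0.65 and -1.30 on M17, M24 and M25, against -2.98, -3.18 and -3.42 on C4, C5 and C6. The border zone arrays all lay above sham but were far apart, M17 being nearest to sham and M24 the highest. The difference was 1.77 ± 0.42 (3.40-fold, 95% interval 0.72 to 2.81, adjusted p = 0.0383). Against C4 alone it was 1.55 ± 0.70 and did not pass (adjusted p = 0.200), nor did the value without M25, 1.70 (adjusted p = 0.144). With another background correction, normexp, neither gene passed, at a difference of 0.63 for Klf5 and 0.97 for Klf6.

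Neutrophil markers and part of the macrophage markers were also higher in the border zone. Of 5 measured neutrophil markers, 5 were higher in the border zone, and their summed linear signal was 4.39 to 4.87 on border zone arrays, against 0.13 to 0.30 on sham arrays, with 1 of the 5 not well above background on any sham array. Only S100a8 was well above background on 3 of 3 sham arrays. The others were so on at most 1 of 3, and they entered the test only through their border zone signal. Among 6 macrophage markers 3 were higher and 1 lower, with sums of 62.0 to 64.9 in the border zone and 24.4 to 33.4 in sham. The sums rest mostly on Lyz2, the brightest of the 6, with means of 5.60 in the border zone and 3.91 in sham. The marker that was lower in the limma fit was Adgre1 (-0.77, adjusted p = 0.0428, 0.167 without M25). Csf1r, at -0.48, did not pass (adjusted p = 0.051). Smooth muscle and pericyte markers summed to 6.52 to 7.90 in the border zone, against 9.37 to 10.4 in sham. Of the 4 tested, 1 was lower and none higher. Fibroblast markers summed to 57.6 to 61.0, against 54.9 to 71.2 in sham, and of the 5 tested 1 was higher and 1 lower. The part of any of these cells in the rise of Klf5 and Klf6 was not tested. The 7 cardiomyocyte markers were bright in both groups, with sums of 465 to 536 in the border zone and 509 to 680 in sham, and none of them passed in the same limma fit, nor at an unadjusted p below 0.05.

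The promoters of the genes that passed are shown because binding boxes for the family's own zinc fingers can lie in them. Matching by symbol, 6 of the 9 factors were in the promoter table of the RefSeq assembly GRCr8; the array headers name the older build rn4. The sequences are the 250 bases before the start of each gene in GRCr8, 5′ to 3′ on the strand of the gene, with capitals marking a CACCC box (CACCC, or GGGTG on the other strand) or a GC box (GGGCGG, or CCGCCC on the other strand). Klf5 (chr15:82471831-82472080, plus strand) and Klf6 (chr17:69458479-69458728, minus strand) are followed by Klf9 (chr1:230126396-230126645, plus strand), a relative described below.
Klf5: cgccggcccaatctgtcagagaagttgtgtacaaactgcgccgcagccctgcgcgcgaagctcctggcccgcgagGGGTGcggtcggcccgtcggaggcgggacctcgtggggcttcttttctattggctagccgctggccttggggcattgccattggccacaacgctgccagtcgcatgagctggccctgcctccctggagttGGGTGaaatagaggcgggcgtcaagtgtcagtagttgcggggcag
Klf6: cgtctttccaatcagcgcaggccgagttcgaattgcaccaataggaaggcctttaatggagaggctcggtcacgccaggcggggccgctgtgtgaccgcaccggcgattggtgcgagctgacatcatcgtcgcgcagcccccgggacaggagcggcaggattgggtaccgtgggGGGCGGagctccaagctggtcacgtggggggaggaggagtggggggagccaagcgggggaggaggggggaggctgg
Klf9: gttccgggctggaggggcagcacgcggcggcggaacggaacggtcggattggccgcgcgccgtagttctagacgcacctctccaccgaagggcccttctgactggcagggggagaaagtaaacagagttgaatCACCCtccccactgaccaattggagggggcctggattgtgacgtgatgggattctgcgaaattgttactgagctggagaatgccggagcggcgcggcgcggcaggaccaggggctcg
The Klf5 window held 2 CACCC boxes and no GC box, and the Klf6 window held 1 GC box and no CACCC box. Over 27457 promoters of that length, 49.4% held at least 1 CACCC box and 32.4% at least 1 GC box, so both boxes were common. Base composition was richer in G and C than usual, at 65.2% for Klf5 and 67.2% for Klf6, against a median of 52.0% over all promoters. Among the factors that did not pass, the Klf11 window held 7 GC boxes at 79.2% G and C, the Klf15 window held 1 CACCC box at 77.2%, and the Klf4 window held neither box at 43.2% but had 2 TATA motifs (TATAAA, in 13.1% of all promoters). By the gene coordinates, the Klf4 and Klf15 windows lay inside the gene and the Klf11 window crossed its start. They are therefore not directly comparable with the Klf5 and Klf6 windows, which lay wholly before the gene. No promoter is shown for Klf2, Klf10 and Klf13.

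Klf2 and Klf4, the flow-responsive pair of endothelium, did not pass. Klf2 was at -1.92, -1.57 and -1.68 on M17, M24 and M25, against -1.51, -1.73 and -1.82 on C4, C5 and C6. Its groups overlapped, and the difference of -0.04 ± 0.15 had a 95% interval of -0.40 to 0.33 (adjusted p = 0.867), which leaves room for a change of up to that size in either direction. Klf4 was at 2.60, 2.76 and 2.74 in the border zone, against 2.76, 2.78 and 2.78 in sham. M17 was the low array and the others overlapped, with a difference of -0.07 ± 0.10 (95% interval -0.33 to 0.18, adjusted p = 0.649). Scaled to the array median, both differences were above 0, at 0.15 for Klf2 and 0.12 for Klf4. Endothelial markers, of which 3 of 7 were on the arrays, summed to 6.49 to 8.45 in the border zone, against 9.52 on C4 and more on C5 and C6. The markers went in different directions in the limma fit. Emcn was lower (-0.95, adjusted p = 0.0212, 0.107 without M25). Pecam1 was at 0.31 (adjusted p = 0.0963) and Cdh5 at -0.34 (adjusted p = 0.206), and neither passed. The part of endothelial content in the Klf2 and Klf4 values was not tested.

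Genes known to be regulated by this pair were read from lists, as counts. All gene lists used here were chosen with earlier results of these data known, so their counts only describe the listed genes. Of 6 measured endothelial genes that Klf2 or Klf4 is known to raise, among them Nos3 and Thbd, none passed, with a median difference of 0.16; at an unadjusted p below 0.05 there were 1 higher (Plat) and 1 lower (Tek). Of 7 measured genes that the pair is known to lower, 4 rose and none fell, where 9.01% of all probes tested passed as higher and 10.3% as lower. Their median was 2.07, and all 7 were higher at an unadjusted p below 0.05. Of the 17930 probes tested, 6524 passed that unadjusted threshold in either direction. The monocyte chemokine Ccl2 was at 4.75, 4.84 and 4.76 in the border zone and 1.15, 0.75 and 0.43 in sham (4.01 ± 0.20, adjusted p = 0.000791). Its border zone arrays lay close together and far above every sham array. E-selectin (Sele) rose by 2.87 ± 0.27 (adjusted p = 0.0032; well above background on 2 of 3 sham arrays), and endothelin 1 (Edn1) rose by 1.28 ± 0.24 (adjusted p = 0.0200; on 1 of 3), a difference that was -0.08 with normexp and did not pass without M25 (adjusted p = 0.104) or against C4 (adjusted p = 0.0607). These genes are also expressed by other cells and answer to other factors. Of 7 measured genes upstream of Klf2, the MEK5 kinase pathway and the CCM complex among them, none passed, and 1 (Mef2d) was lower at an unadjusted p below 0.05.

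Klf10, Klf11 and Klf13, which are among the members that bind Sin3, showed no call. Klf10 was at 2.07, 1.42 and 1.73 in the border zone, against 1.89, 1.77 and 1.11 in sham, and the groups overlapped (0.15 ± 0.27, 95% interval -0.51 to 0.82, adjusted p = 0.713). Klf11 was at 0.04, -0.17 and -0.09 in the border zone, against 0.26, 0.34 and 0.10 in sham. All border zone arrays lay under all sham arrays by a small margin, and the difference of -0.31 ± 0.12 (95% interval -0.61 to -0.01) did not pass after adjustment (adjusted p = 0.132). Klf13 was at 2.09, 1.62 and 1.82 in the border zone, against 2.07, 2.53 and 2.83 in sham. C5 and C6 lay above the border zone, while C4 was level with M17, and the difference was -0.63 ± 0.24 (95% interval -1.21 to -0.05, adjusted p = 0.113). It was -0.22 ± 0.22 against C4 and passed as lower in 1 of the alternatives, without C4 (-0.84, adjusted p = 0.0234), where 40.8% of all probes passed. The sum of the nervous tissue markers was 1.32 to 1.65 on the border zone arrays, against 2.12 on C4, 12.2 on C5 and 15.4 on C6, and its part in the Klf13 values was not tested.

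**Figure D2:**
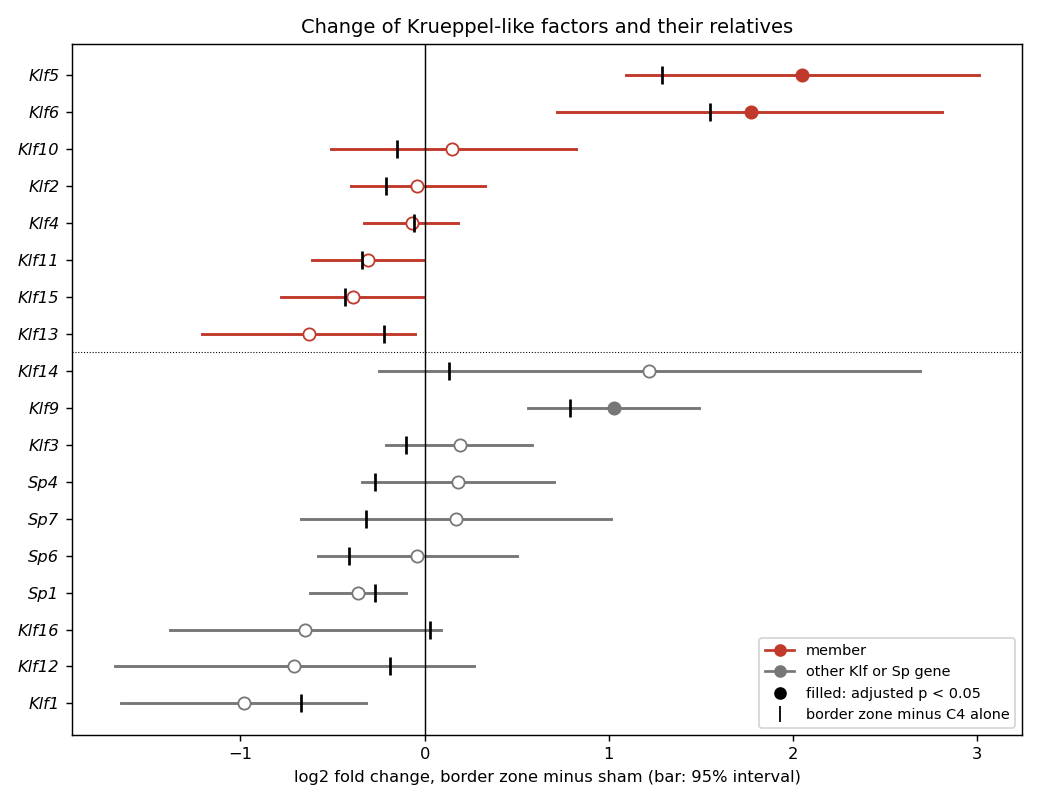
Log2 difference, border zone minus sham (horizontal axis), with its 95% interval, for the 8 Krueppel-like factors (red) and their 10 tested Klf and Sp relatives (grey); filled points passed and black ticks give the difference from C4 alone. Klf5, Klf6 and Klf9 passed the threshold, all higher in the border zone, and the intervals of Klf11, Klf13 and Klf15 end just under 0 without passing after adjustment.

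Around Klf10, Klf11 and Klf13, signal components of the TGF-beta pathway changed in part. Of 9 tested genes, 3 rose and none fell, with a median of 0.33. The homeobox corepressor Tgif1 was at 1.00, 0.49 and 0.75 in the border zone and -1.07, -1.44 and -1.55 in sham (2.10 ± 0.20, adjusted p = 0.00313), and the ligand Tgfb2 averaged -1.14 ± 0.23 in the border zone and -3.13 ± 0.14 in sham (SD, n = 3 each), a 3.99-fold difference (adjusted p = 0.00217). The groups were far apart for both. The receptor Tgfbr2 passed at 0.86 ± 0.22 (adjusted p = 0.0471) but was well above background on 1 of 3 sham arrays. It was 0.45 against C4 (adjusted p = 0.204) and -0.48 with normexp, and of 14 alternatives 11 lost its call, that without M25 among them (adjusted p = 0.179), and 1 turned its sign. Of 7 tested cofactors and ubiquitin ligases of the family, such as Hdac1, Ctbp1 and Crebbp, none passed, and 1 (Smurf2) was higher at an unadjusted p below 0.05.

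Klf15, the metabolic member, was at 2.35, 1.84 and 2.04 in the border zone, against 2.51, 2.41 and 2.49 in sham. Every border zone array lay under every sham array, M17 the closest, and the sham arrays lay close together. The difference of -0.39 ± 0.16 (0.762-fold, 95% interval -0.78 to -0.01) did not pass after adjustment (adjusted p = 0.133). It was -0.43 ± 0.23 against C4 and -0.38 without M25, and neither passed. Of 9 tested metabolic and channel genes that Klf15 is known to raise, the alanine aminotransferase gene Gpt was the 1 that fell (-0.89 ± 0.22, adjusted p = 0.0437; -0.47 against C4, adjusted p = 0.166; adjusted p = 0.156 without M25), and Slc2a4, Kcnip2 and Cpt1b, with differences of 0.16, 0.40 and -0.27, did not pass. Of 5 tested genes that Klf15 is known to lower or oppose, the matrix protein gene Ccn2 rose (2.27 ± 0.32, adjusted p = 0.00953), while the cofactor Myocd fell by 0.61 ± 0.12 (adjusted p = 0.0224) and Gata4 fell by 0.55 ± 0.14 (adjusted p = 0.0411). Without M25 none of these 3 passed, with adjusted p-values of 0.0607 for Ccn2, 0.127 for Myocd and 0.173 for Gata4, and none passed against C4 (0.0507, 0.0593 and 0.0946). Scaled to the array median, Myocd was -0.42 (adjusted p = 0.146) and Gata4 -0.36 (adjusted p = 0.205). The natriuretic peptide genes Nppa and Nppb, at 0.59 and 0.27, did not pass.

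Genes listed as known targets of the risen factors went in both directions. Of 6 Klf5 targets, 1 rose and 3 fell, with a median of -0.45. The gelatinase Mmp9, a neutrophil product as well, averaged -1.55 ± 0.43 in the border zone and -4.36 ± 1.09 in sham (SD, n = 3 each), without overlap (2.81 ± 0.56, adjusted p = 0.0238; well above background on 2 of 3 sham arrays). The cyclin gene Ccnd1 was at -1.22, -1.61 and -1.35 in the border zone and 0.77, 1.17 and 1.37 in sham, and fell by 2.50 ± 0.20 (adjusted p = 0.00209). The lipid regulator Ppara fell by 1.09 ± 0.21 (adjusted p = 0.0212) and the smooth muscle gene Tagln by 0.55 ± 0.13 (adjusted p = 0.0408). Without M25 Ccnd1 passed (adjusted p = 0.0244), while Mmp9 (0.105), Ppara (0.105) and Tagln (0.175) did not. Against C4, Ppara was -0.73 (adjusted p = 0.0648) and Tagln -0.35 (adjusted p = 0.105), and Tagln was -0.36 scaled to the array median (adjusted p = 0.132). Pdgfa, a growth factor target, did not pass at 0.51. Of 4 tested Klf6 targets, the cell cycle inhibitor Cdkn1a rose (1.07 ± 0.15, adjusted p = 0.00846; 0.0642 without M25) and the other 3 did not pass, with differences of 0.17 to 0.39.

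**Figure D3:**
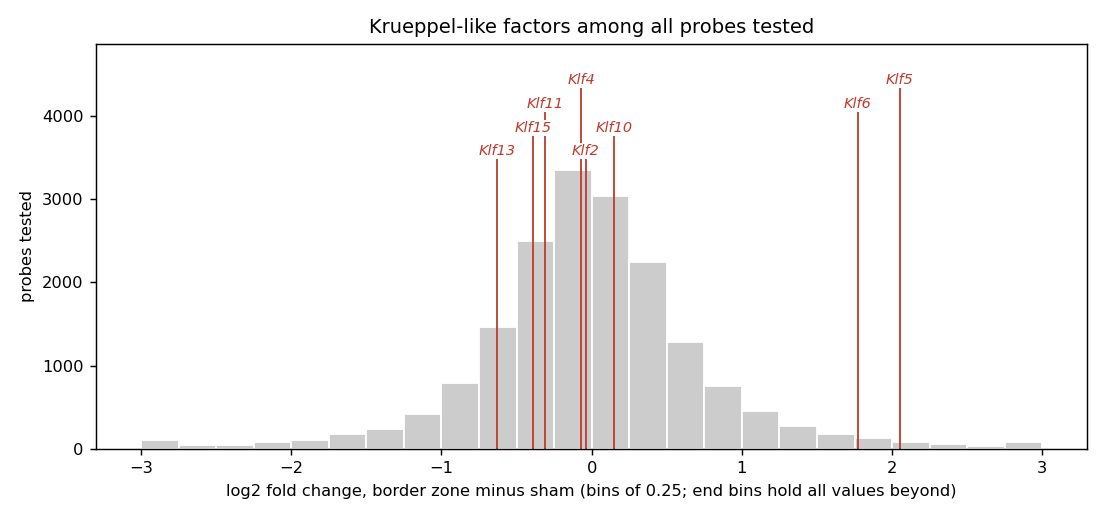
Histogram of the log2 difference, border zone minus sham (horizontal axis), over the 17930 probes tested (vertical axis, number of probes), with red lines at the 8 Krueppel-like factors. Klf5 at 2.05 and Klf6 at 1.77 stand in the upper tail, and the other 6 lie between -0.63 and 0.15 in the bulk.

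Among 17 other Klf and Sp genes listed as relatives, 11 were on the arrays and 10 were tested; Sp5 was not well above background on any array. Klf9, a factor known as a direct target of the glucocorticoid receptor, was the 1 that rose. It was at 2.15, 1.65 and 1.91 in the border zone, against 1.11, 0.64 and 0.87 in sham, with no overlap (1.03 ± 0.19, 2.04-fold, 95% interval 0.56 to 1.49, adjusted p = 0.0191). Against C4 alone it was 0.79 (adjusted p = 0.0918), and without M25 the adjusted p was 0.102. No relative fell past the threshold, while 2 (Klf1 and Sp1) were lower at an unadjusted p below 0.05, and the median of the 10 was 0.07. The erythroid factor Klf1 had the lowest value, -0.98 ± 0.27 (adjusted p = 0.0546), at -2.84, -3.65 and -3.16 in the border zone and -2.55, -2.29 and -1.87 in sham. M24 was its lowest array, and the summed red cell and platelet signal was also lowest there, 7.63 in a border zone range of 7.63 to 62.5, against 52.1 to 69.2 in sham. The red cell genes Hbb (2.68) and Alas2 (-4.35) were lowest on M24. The platelet gene Pf4 was highest there, at 0.24. In the limma fit Pf4 was higher in the border zone (0.82, adjusted p = 0.0187, 0.106 without M25). The part of blood content in the Klf1 values was not tested. The other 8 relatives lay between -0.71 (Klf12) and 1.22 (Klf14, well above background on 1 of 3 sham arrays, adjusted p = 0.202). The Klf9 window shown above held 1 CACCC box and 1 match to a loose AP-1-like pattern (TGANTCA, with any base at N), which 6.36% of all promoters held. The match, TGAATCA, overlapped the CACCC box.

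Glucocorticoid signalling and the clock are known to control Klf9 and Klf15, and some genes of both lists changed. The part of either in the Klf9 and Klf15 values was not tested. Of 7 tested glucocorticoid genes, 3 rose, Zbtb16 (2.31 ± 0.27, adjusted p = 0.00538), Fkbp5 (2.25 ± 0.29, adjusted p = 0.00708) and Errfi1 (1.51 ± 0.33, adjusted p = 0.0305), while the receptor gene Nr3c1 fell by 0.86 ± 0.12 (adjusted p = 0.0085). The other 3, Tsc22d3, Sgk1 and Per1, did not pass, with differences of 0.52, 0.26 and 0.98. Without M25 Zbtb16 passed (adjusted p = 0.0429), while Fkbp5 (0.0501), Errfi1 (0.125) and Nr3c1 (0.0725) did not, and Errfi1 did not pass against C4 (0.0644). Of 12 tested clock genes, 3 rose, Ciart (2.42) and Per2 (1.87) among them, and 2 fell (Npas2 -2.84 and Bmal1 -1.90). Without M25 Per2 (adjusted p = 0.0912) and Bmal1 (0.0628) did not pass, nor did Bmal1 against C4 (0.0738).

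Over the 6 arrays, the genes whose pattern was most like that of Klf5, of 11000 genes searched, were 1700001K19Rikl (Pearson r = 0.999) and Cttnbp2nl (r = 0.998), given as a description since the arrays share groups and scans. Cttnbp2nl was at -1.37, -1.38 and -1.41 in the border zone and -2.04, -2.72 and -2.38 in sham, and 1700001K19Rikl was at -0.92, -0.91 and -1.03 in the border zone and -1.75, -2.69 and -2.10 in sham. Klf5 was not well above background on C5 and C6, so both r values rest in part on background signal.

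**Figure D4:**
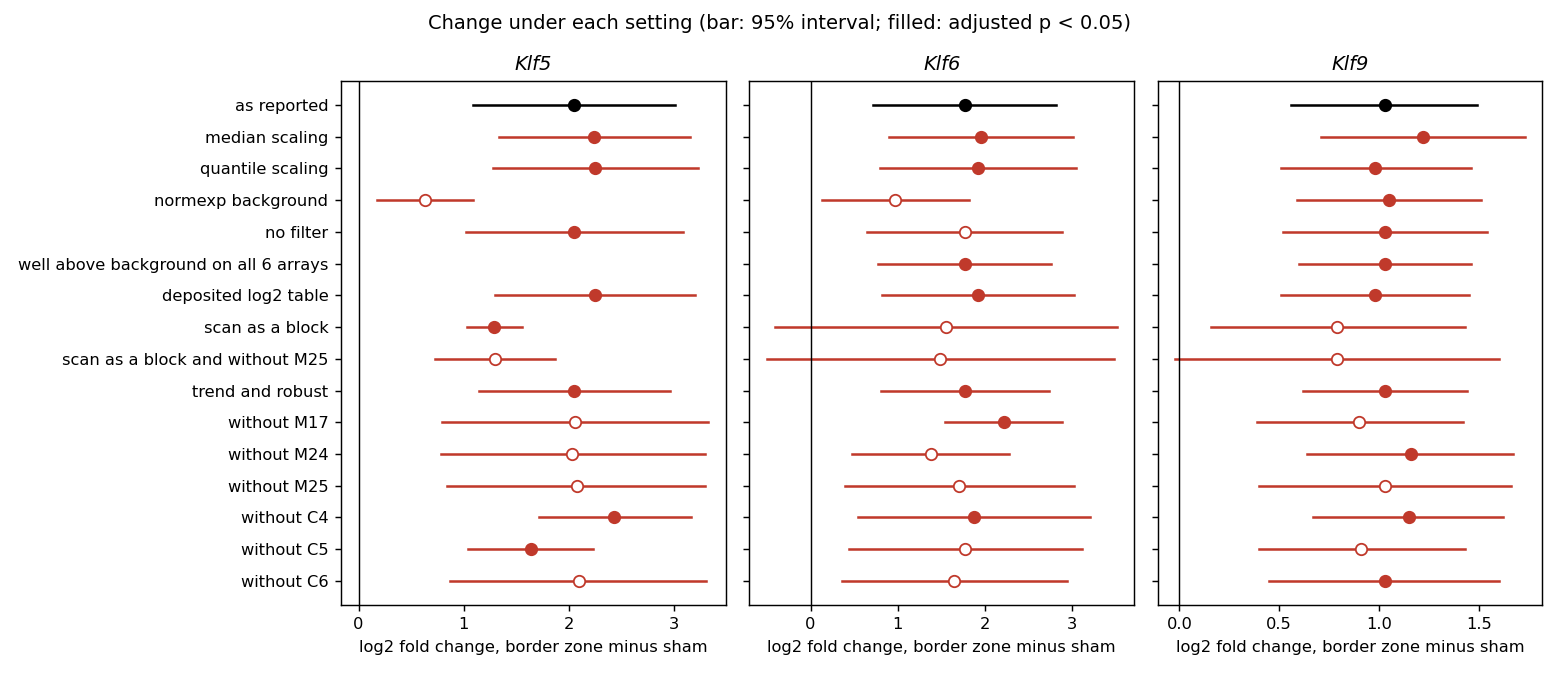
Log2 difference, border zone minus sham (horizontal axes), of Klf5, Klf6 and Klf9 under each way of processing the arrays (rows), 1 panel per gene with its own scale, with bars for the 95% interval; filled points passed an adjusted p of 0.05, and Klf5 has no value where all 6 arrays had to be well above background. Klf5 stayed between 0.63 and 2.43 and Klf6 between 0.97 and 2.22, above 0 in every row shown, but passed in some rows and not in others.

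The calls of Klf5 and Klf6 rest on few arrays. Without M25 the limma fit called none of the 8 factors (2 at an unadjusted p below 0.05), where it called 2.84% of all probes. At an unadjusted p below 0.05, 4218 of the 17930 probes passed without M25. Within the shared scan, against C4, Klf5 was the 1 of 8 that passed, where 15.9% of all probes did.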

How the data were processed

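TRIzol-extracted, Cy3-labelled RNA of 6 hearts, per the labels' protocols, was read on 1-colour Agilent arrays, 3 for the border zone and 3 for sham. Per the file headers, the deposited spot signals are intensity values from Agilent Feature Extraction 11.0.1.1, background-subtracted and not normalized between arrays, and the other columns used are flags of 0 or 1 per spot. The authors also deposited a table on the log2 scale with column medians of 5.53 to 5.54, whose scaling steps are not given in the sources used here; its columns correlated with the scanner values at r = 0.992 to 0.999, and it served as an alternative.

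Control and outlier spots were left out, spots of a probe averaged, and the log2 processed signal reduced by the 75th percentile of the array. Of 24614 probes carried, 17930 were tested, those for which at least 1 group had all 3 arrays well above background. The test was two-sided, by lmFit and eBayes of limma 3.58.1 (R 4.3.3), with Benjamini-Hochberg adjustment and a threshold of 0.05. The procedure was also run on simulated data with independent arrays. These held no scan effect, no background difference and no dependence of M25 on other arrays, so the run cannot speak to those limits. Probes were named by RefSeq accession in GRCr8 tables. Tables were written in Python 3.11.15 (pandas 2.3.3, numpy 2.4.6) and plots drawn by matplotlib 3.10.9. Precision is limited by the number of arrays. The p-values set each group difference against the spread between these arrays within groups, moderated across probes, and take the arrays as independent.

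Named genes are every member with a probe, up to 4 passing genes per list by absolute difference, and the 2 genes most correlated with the member that rose most; genes that did not pass and are named beside them were chosen after their values were seen. The values of 1 listed gene are not reported here. The members and gene lists were chosen with earlier results of these data known. Alternatives were 2 other scalings, normexp, 2 other filters, the deposited table, scan as a block with and without M25, another moderation (trend and robust), and leaving out each array. Normexp (offset 50) used median spot signals in place of the mean signals planned, which were not used here.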

Additional observations from a re-analysis of the deposited data

How the results depend on the processing

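Of the 8 factors, 2 passed in the analysis reported and 2 under median scaling, quantile scaling, the deposited table and the trend and robust moderation. The count was 1 without a filter on dim probes (Klf5), 1 with all 6 arrays required to be well above background (Klf6, Klf5 not being tested there), 1 with scan as a block (Klf5), 0 with normexp (4 at an unadjusted p below 0.05) and 0 with scan as a block and without M25 (1 unadjusted). Leaving out 1 array gave 0 to 3, with 0 without M24, M25 or C6 (2, 2 and 3 unadjusted), 1 without M17 (Klf6) or C5 (Klf5), and 3 without C4, where Klf13 also passed. Of all 17930 probes tested, 4835 without M24, 4218 without M25, 5888 without C6 and 7403 with normexp passed unadjusted. The counts of relatives that follow are of 10 tested, or of 6 with all 6 arrays required. Of all probes, 36.0% passed with all 6 arrays required, 23.7% with trend and robust, and 40.8% without C4, where 6 relatives passed. Among relatives 1 passed, against 2 with quantile scaling and with the deposited table, 3 with all 6 arrays required and with trend and robust, 0 with scan as a block with M25 (2 unadjusted) or without it (0 unadjusted), and 0 to 6 leaving out 1 array. Over all probes 3460 passed, against 2293 with normexp, 1826 with no filter, 76 with scan as a block and without M25, and 509 (without M25) to 7308 (without C4) leaving out 1 array.

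The difference of Klf5 was 0.63 to 2.43 (adjusted p 0.00371 to 0.0959, not passing in 6 of 14 alternatives), that of Klf6 0.97 to 2.22 (0.0193 to 0.363, 8 of 15) and that of Klf9 0.79 to 1.22 (0.00796 to 0.274, 5 of 15). Differences that changed sign were Klf2 (0.15 with median scaling, 0.085 with quantile scaling, 0.085 with the deposited table, and -0.12 to 0.06 leaving out 1 array, above 0 without M17 and, at 0.047, without C4), Klf4 (0.12 with median scaling and 0.077 with normexp), Klf10 (-0.15 with scan as a block, -0.14 also without M25, and -0.089 to 0.31 leaving out 1 array, below 0 without C6 and, at -0.014, without M17), Klf14 (-0.16), Edn1 (-0.079) and Tgfbr2 (-0.48), the last 3 with normexp. The cause was not tested. The dimmest or another probe of a gene was not run, as each factor has 1 probe. No paired analysis was possible because the array names of the 2 groups share no numbers. Signal over background limits Klf5, which was well above background on 1 of 3 sham arrays.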
